A study of Bos taurus with 16 samples.

Results

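The heat shock proteins examined here were 10 genes of the protein quality control of muscle: HSPA1A, HSPA8, HSPH1, HSP90AA1, DNAJB1 and BAG3, and the small heat shock proteins HSPB1, HSPB6, HSPB7 and CRYAB. They were chosen by symbol, through the NCBI gene identifiers of the deposited tables, and all 10 were found among the 34109 genes listed in each muscle. RNA-seq was done on round and sirloin muscle of 8 neonatal male Hanwoo calves, a Korean beef breed, giving 16 libraries. The control calves, 4 in number, were born to cows fed 100% of their nutrient requirement in mid to late pregnancy, and the 4 treated calves to cows fed 150%. Each library came from whole tissue of a single muscle of 1 calf, taken shortly after birth and before colostrum, so that fewer cells of a type and less RNA per cell cannot be told apart in any value below. The replicate numbers 1 to 4 within a diet are used as the number of a calf. Deviations from the group means correlated at 0.322 to 0.769 between round and sirloin libraries with the same diet and number. Between libraries of different calves they correlated at −0.532 to 0.477. These ranges overlap, so the pairing is an assumption on which the tests by calf rest.

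Heat shock proteins are chaperones, which hold, refold or pass on proteins that have lost their shape. HSP70 proteins (HSPA1A, induced by stress, and HSPA8, made at all times) work in a cycle that J-domain proteins such as DNAJB1 start and nucleotide exchange factors such as HSPH1 and BAG3 end, and HSP90 (HSP90AA1) takes over clients that are nearly folded. Small heat shock proteins bind unfolding proteins without using ATP. Muscle is rich in CRYAB, HSPB1, HSPB6 and HSPB7, which associate with desmin, filamin, actin and titin in the sarcomere, and BAG3 joins small heat shock proteins to HSP70 when damaged filamin is removed.

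The libraries held between 44473011 and 72446933 counts, and values are given as CPM, counts scaled to library size with TMM factors over all 16 libraries, or as the authors' length-normalized TPM where genes of different length are compared. Several libraries stood apart. Both libraries of control calf 2 were the deepest, and adipocyte markers (ADIPOQ, PLIN1, FABP4, LEP and CIDEC) summed to 3777 TPM in sirloin of treated calf 4, against at most 15.0 TPM in any other library. Slow fibre markers (MYH7, MYL2, TNNC1 and others) summed to 75837 TPM in round of treated calf 2, with 13682 to 36395 TPM in the other round libraries. Fast fibre markers of skeletal muscle were abundant in every library, at 27847 to 91244 TPM in sum. Counts of HSPA1A could not be separated from those of its near-identical copy HSPA1B, which the gene table lists as a synonym of it, and reads of HSPA8 and HSP90AA1 can be shared with pseudogenes, so the values of these 3 genes are uncertain to that extent.

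The levels of the 10 genes spanned a wide range on the TPM scale, with 2 small heat shock proteins at the top. CRYAB, the αB-crystallin that guards desmin and titin, had the highest level of the 10 genes, with a median of 10775 TPM in round (range 4052 to 28318, n = 8) and 4502 TPM in sirloin (2406 to 7060). HSPB1, which binds actin and intermediate filaments, came next, with 2893 TPM in round and 1473 TPM in sirloin. The constitutive HSPA8 (1080 and 886 TPM), the inducible HSPA1A (938 and 529 TPM), HSPB6 (611 and 637 TPM) and HSP90AA1 (571 and 450 TPM) followed, and their ranges over calves overlapped. HSPB7, a partner of filamin C, had medians of 358 and 292 TPM and BAG3 of 257 and 217 TPM. HSPH1 (59.7 and 42.6 TPM) and DNAJB1 (19.6 and 16.9 TPM) were the least abundant. All 10 genes were measured in all libraries, and all passed the filter of at least 1 count in any library.

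**Figure D1:**
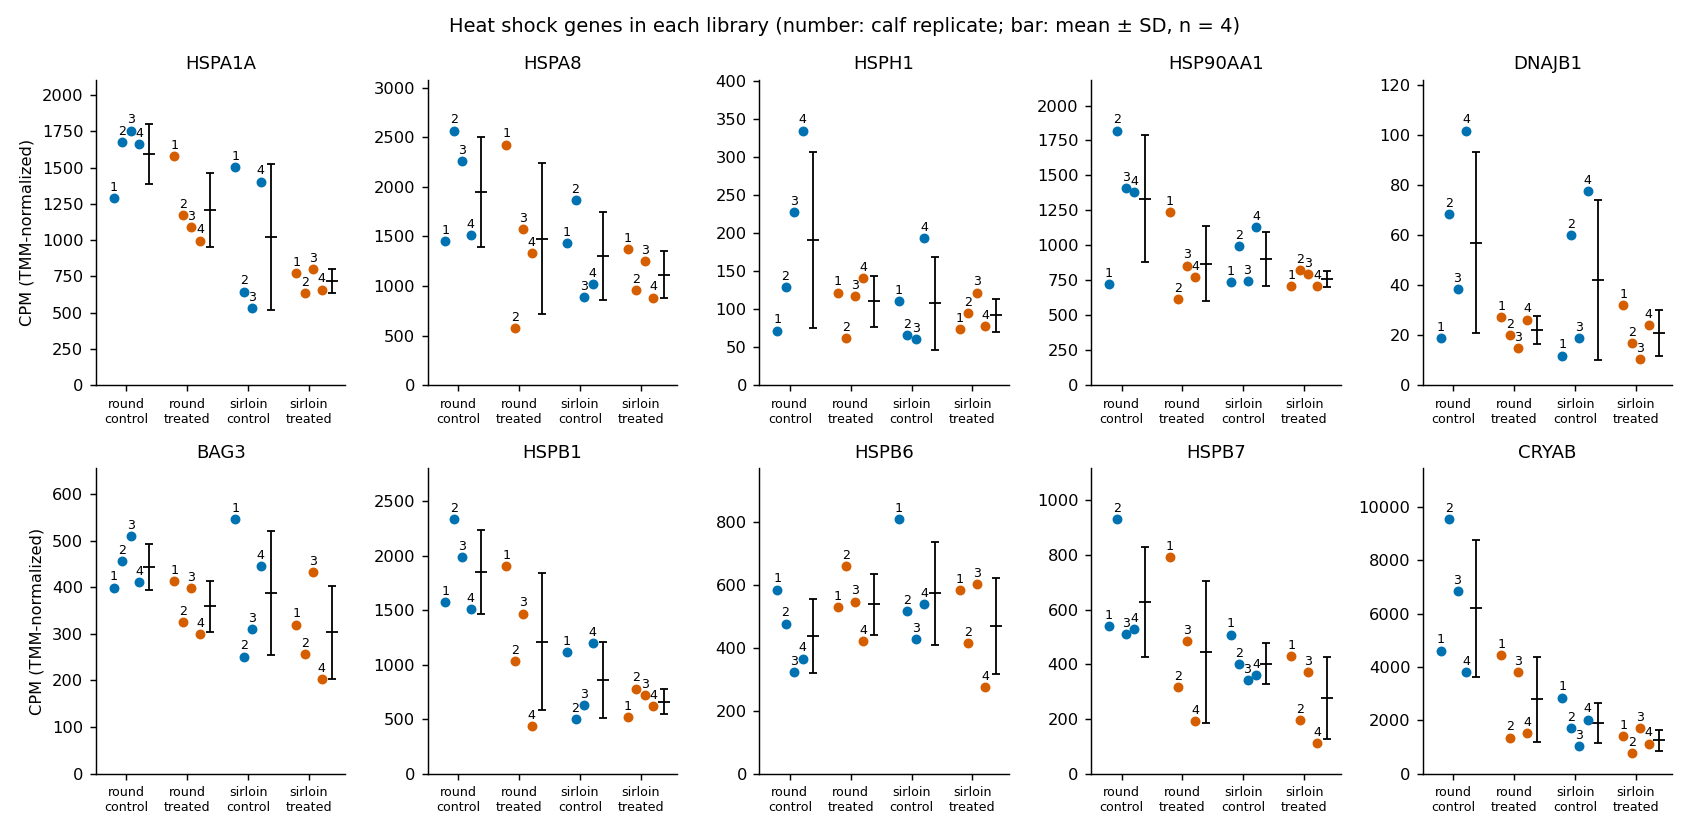
CPM (linear axes from 0) of the 10 heat shock genes in each library, by muscle and diet. Points are libraries, numbered by calf (blue, control; orange, treated), and bars give the mean ± SD of 4 libraries. Control and treated libraries overlapped for every gene in both muscles, and control calf 2 was the highest round library for 5 of the 10 genes.

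The first question was whether a calf with much of a heat shock RNA in one muscle also had much of it in the other. DNAJB1, the J-domain protein that hands clients to HSP70, showed this. In round muscle the control calves 1 to 4 had 18.8, 68.4, 38.5 and 102 CPM, and the treated calves 27.1, 20.1, 14.9 and 26.2 CPM. In sirloin the control calves had 11.8, 60.1, 18.7 and 77.8 CPM, and the treated calves 32.2, 16.7, 10.5 and 24.1 CPM. Control calves 2 and 4 were the 2 highest in both muscles, while control calf 1 lay among the 2 lowest in both. The highest calf had 6.83 times the level of the lowest in round and 7.43 times in sirloin.

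Calf-to-calf differences were tested with an F test of the 6 calf coefficients in a model of 4 groups plus calf, which asks if calves of the same diet differ by more than the scatter between the muscles of a calf. DNAJB1 passed it in edgeR's quasi-likelihood test (F = 26.4, Benjamini-Hochberg adjusted p = 0.00107), and so did HSPB7 (F = 12.7, adjusted p = 0.00648), which makes 2 of 10 genes. Over all genes 4699 of 22877 passed, which is 20.5%, so the share among heat shock genes was near that of all genes tested. After filterByExpr, which removes genes with low counts, 5661 of 15638 genes passed, and again 2 of the 10. Against that background the share of the heat shock genes was lower. When control calf 2 was left out, 1896 of 22545 genes passed, and both heat shock genes still did. DNAJB1 passed with each calf left out in turn, with an adjusted p of 0.00133 to 0.00883.

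HSPB7 differed most among the treated calves. Round muscle of the control calves 1 to 4 had 539.5, 929.6, 510.3 and 528.5 CPM, and that of the treated calves 790.9, 317.5, 485.2 and 191.8 CPM. Sirloin had 508.3, 399.9, 341.4 and 360.4 CPM in the control calves and 429.9, 194.9, 372.6 and 110.8 CPM in the treated calves. Treated calf 4 was the lowest and treated calf 2 the next lowest in both muscles, and treated calf 1 was the highest treated calf in both. Without treated calf 4 HSPB7 no longer passed (adjusted p = 0.0539, edgeR), although its correlation without the 2 most distant calves was 0.816.

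Across the 8 calves, the log2 CPM of DNAJB1 in round and sirloin had a Pearson's r of 0.929 (two-sided exact permutation p = 0.00156) and a Spearman's rho of 0.929 (exact permutation p = 0.00223). Adjusted over the 20576 genes with a correlation, these values were 0.0663 and 0.104. Within diets r was 0.966, with an exact permutation p of 0.00174, or 0.145 adjusted. Without control calves 2 and 4, the calves farthest from the median in round, r fell to 0.685. HSPB7 had an r of 0.889 (exact permutation p = 0.00536, 0.0890 adjusted) and a rho of 0.833 (exact permutation p = 0.0154, 0.166 adjusted). None of the 10 genes passed the adjusted threshold by correlation, where 165 of 20576 genes (0.802%) passed by Pearson's r and 0 by Spearman's rho or within diets.

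The other 8 genes were less alike between the muscles of a calf. Pearson's r was 0.498 for HSP90AA1, 0.497 for CRYAB, 0.483 for HSPA8, 0.367 for BAG3, 0.361 for HSPB6 and 0.210 for HSPH1. It was 0.0287 for HSPA1A and −0.0816 for HSPB1. The exact permutation p of these 8 genes ranged from 0.211 to 0.935, and Spearman's rho lay between −0.405 for HSPB1 and 0.548 for HSPA8. Without the 2 calves farthest from the median in round, r was −0.357 for CRYAB, −0.734 for HSPH1, −0.200 for HSPA1A and −0.363 for HSPB1. It was 0.0991 for HSPA8, 0.139 for BAG3, 0.446 for HSP90AA1 and 0.508 for HSPB6. Leaving out the farthest calves narrows the range and leaves few calves, so these values cannot show what a relation rested on. The median r of the 10 genes was 0.425, against 0.487 over all genes and 0.592 over genes with a mean of at least 1 TPM. Within diets the medians were 0.267, 0.508 and 0.616, and the r of single genes ran from −0.348 for HSPB1 and −0.328 for HSPA1A to 0.666 for HSPB6, 0.855 for HSPB7 and 0.966 for DNAJB1. HSPB6 had an adjusted p of 0.0711 in the edgeR F test of calves, and 0.0419 without treated calf 2.

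**Figure D2:**
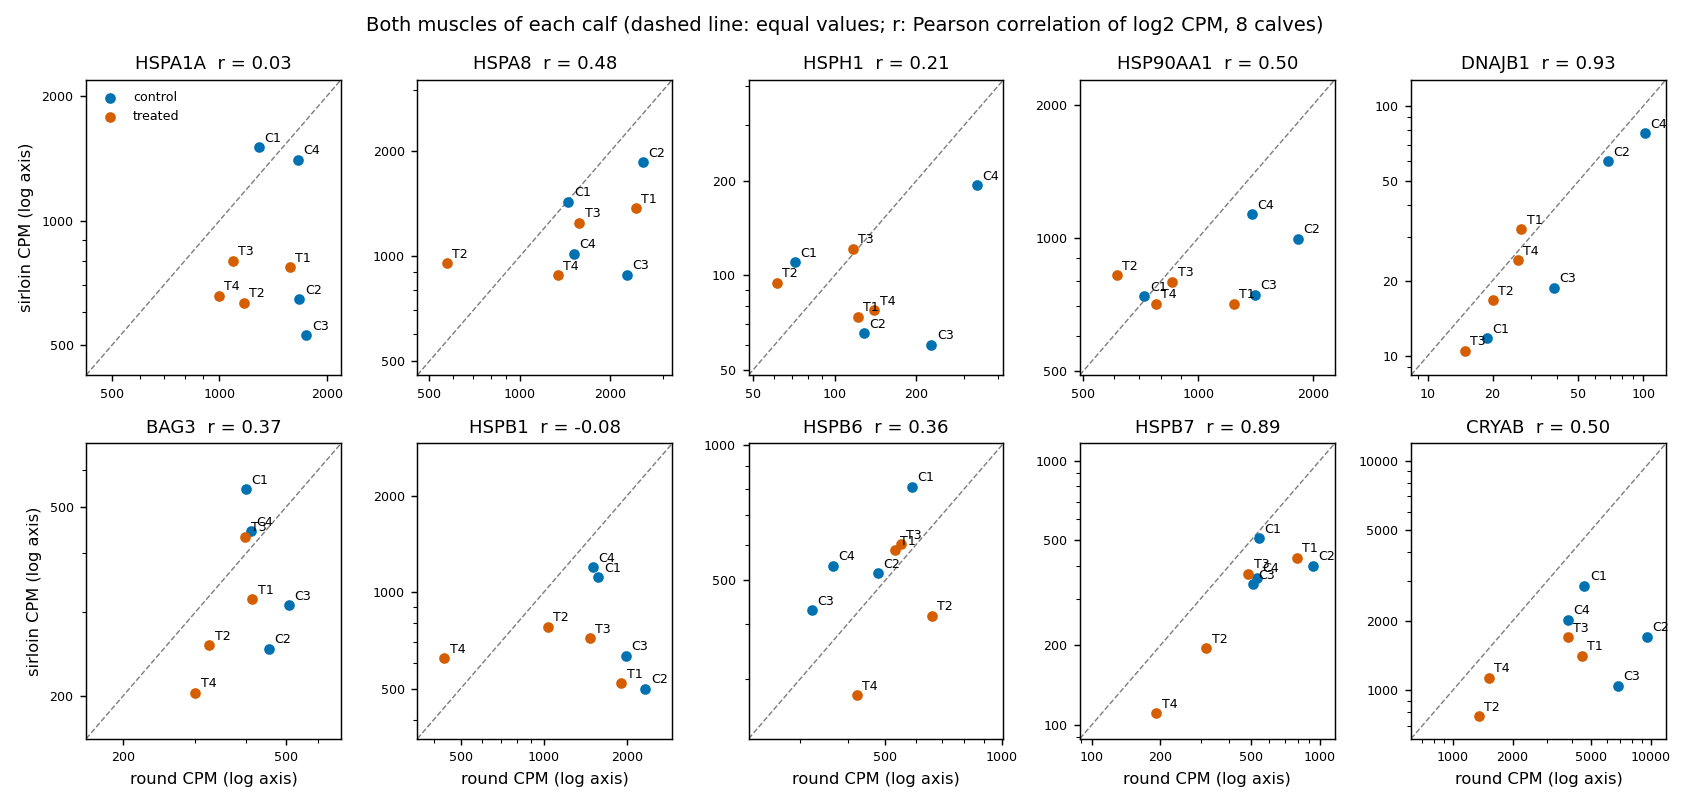
CPM in sirloin against CPM in round muscle of the same calf (log axes), 1 panel per gene, with C for control and T for treated calves and the dashed line at equal values. Calves lined up for DNAJB1 (r = 0.93) and HSPB7 (r = 0.89) and scattered for HSPA1A (r = 0.03) and HSPB1 (r = −0.08), and 8 of 8 calves lay below the line for CRYAB and HSPB7.

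HSPA1A and HSPB1 illustrate how the order of calves changed with the muscle. HSPA1A, the stress-induced HSP70, had 1291, 1678, 1756 and 1661 CPM in round of the control calves, and 1506, 645.5, 529.0 and 1404 CPM in their sirloin. In the treated calves it had 1578, 1172, 1090 and 997.3 CPM in round and 771.7, 633.5, 800.7 and 659.3 CPM in sirloin. Control calves 2 and 3 were thus the 2 highest in round, and control calf 3 was the lowest of all in sirloin. HSPB1 had 1578, 2336, 1988 and 1512 CPM in round of the control calves and 1116, 500.1, 633.3 and 1198 CPM in their sirloin. In the treated calves it had 1909, 1037, 1470 and 436.3 CPM in round and 519.3, 781.2, 719.4 and 623.5 CPM in sirloin. Control calf 2 was the highest of 8 in round and the lowest of 8 in sirloin. Counted over the 10 genes, control calf 2 was highest for 5 in round and for 1 in sirloin, whereas control calf 1 was highest for 0 in round and for 5 in sirloin, and control calf 4 for 2 and 4. Treated calf 4 was lowest for 4 genes in each muscle.

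The genes of the HSP70 and HSP90 cycle moved together to differing degrees over the libraries. The mean of these 6 genes, each centred in its group and scaled, correlated over the 16 libraries with HSP90AA1 at 0.828, HSPH1 at 0.792, HSPA1A at 0.748, HSPA8 at 0.624, BAG3 at 0.588 and DNAJB1 at 0.465. These 6 values include the gene itself. The small heat shock proteins, which were not in the mean, had 0.671 for CRYAB, 0.486 for HSPB7, 0.481 for HSPB1 and 0.0342 for HSPB6. Among 11788 genes with a mean of at least 1 TPM and outside the gene lists used here, SMS (0.884), KANSL1 (0.855), DCAKD (0.827), CCT5 (0.825) and SLC39A14 (0.822) were most like this mean. SMS makes spermine, and CCT5 is a subunit of the cytosolic chaperonin. The 27 other cytosolic chaperones and co-chaperones, which the lists hold, ran from −0.183 for ST13 to 0.889 for HSPA4, above SMS. The 16 libraries come from 8 calves, and these correlations are given as a description.

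Immediate early genes (FOS, JUN, EGR1 and others), which rise within minutes of tissue stress or handling, are given beside these calf differences. In the same edgeR F test of calves 9 of the 12 passed, against 20.5% of all genes, or 5661 of 15638 after filterByExpr. Of other markers, 5 of 6 smooth muscle, 3 of 4 macrophage and 3 of 5 adipocyte genes passed it as well. So did 2 of 8 fast fibre, 1 of 4 tested red blood cell, 0 of 8 slow fibre and 0 of 5 endothelial genes. The sum of the immediate early genes was highest in treated calf 4, at 1151 TPM in round and 1393 TPM in sirloin. In control calves 2 and 4, where DNAJB1 was highest, it was 472.7 and 563.2 TPM in round, and 234.7 and 451.2 TPM in sirloin, of which 234.7 TPM was the lowest sirloin sum. Treated calf 4 was also the lowest for HSPB7. The part of sampling or handling in the differences between calves was not tested.

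The second question was whether the maternal diet changed these genes. In round muscle 9 of 10 genes had a lower mean level in the treated calves, with HSPB6 the exception, and in sirloin all 10 did. No gene passed edgeR's quasi-likelihood test in round, in sirloin, with the muscles of a calf summed, or in the test of a diet effect that differs between muscles. Over all genes 4 of 21677 (0.0185%) passed in round, 2 of 21776 (0.00918%) in sirloin, 1 of 22877 (0.00437%) in the sums and 0 of 22877 in the test of the difference. At an unadjusted p under 0.05 there were 2 of 10 heat shock genes in round, 0 in sirloin, 2 in the sums and 0 in the test of the difference, against 956, 852, 881 and 637 of all genes. DESeq2 and limma-voom also called 0 of the 10 genes in each of the 4 comparisons.

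The median log2 fold change of the 10 genes, treated minus control, was −0.52 in round, −0.37 in sirloin and −0.45 in the sums. The medians over all genes were 0.02, 0.03 and 0.01, with 48.1%, 47.1% and 48.8% of genes below 0. The 10 genes are measured in the same calves and are not independent of each other. Markers of other cells and fibres moved with the diet as well, without passing the test. The 8 slow fibre genes had a median log2 fold change of 0.98 in round, with 0 of 8 below 0 and 4 with an unadjusted p under 0.05, and −0.20 in sirloin. The 8 fast fibre genes had medians of −0.16 in round and −0.26 in sirloin, with 8 of 8 below 0 in each muscle. The 5 adipocyte genes had −1.32 in round and 8.12 in sirloin, where treated calf 4 stood far above the other calves. The 4 tested red blood cell genes had medians of 1.18 in round and 1.26 in sirloin, with 0 below 0, at sums of at most 29.8 TPM in any library. The part of these markers in the differences of the heat shock genes was not tested. Control and treated calves overlapped for all 10 genes in both muscles, where 1.76% of all genes in round and 1.68% in sirloin did not overlap.

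Of the 10 genes DNAJB1 had the largest log2 fold change in both muscles, −1.34 ± 0.438 (SE) in round (4 against 4 calves, edgeR, adjusted p = 0.864) and −1.02 ± 0.555 in sirloin (adjusted p = 0.876). The mean in round was 56.9 ± 36.3 CPM (SD, n = 4) in control and 22.1 ± 5.71 CPM in treated calves. All 4 treated calves lay below control calves 2, 3 and 4 in round, and control calf 1 lay among the treated calves. Without control calf 4 the log2 fold change was −0.90 in round and −0.54 in sirloin.

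CRYAB had 4614, 9541, 6849 and 3808 CPM in round of the control calves and 4463, 1353, 3813 and 1519 CPM in that of the treated calves. Treated calves 2 and 4 were far below all others, and treated calves 1 and 3 overlapped with the control group. Its log2 fold change was −1.13 ± 0.453 in round (edgeR, adjusted p = 0.864) and −0.61 ± 0.328 in sirloin (adjusted p = 0.876). Treated calf 2, the library with the high slow fibre sum, had the lowest CRYAB in round, and leaving this calf out gave −0.91 in round.

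The rest of the chaperone cycle showed smaller differences. In round the log2 fold changes were −0.77 ± 0.429 for HSPH1, −0.59 ± 0.332 for HSP90AA1, −0.38 ± 0.256 for HSPA1A, −0.37 ± 0.402 for HSPA8 and −0.28 ± 0.226 for BAG3. In sirloin the same genes lay between −0.51 for HSPA1A and −0.22 for HSPA8. HSPB1 had −0.58 ± 0.397 in round and −0.38 ± 0.292 in sirloin, and HSPB7 −0.46 ± 0.405 and −0.53 ± 0.376. Single calves moved these values widely. With each calf left out in turn, the round values ran from −1.04 (without control calf 1) to −0.35 (without control calf 4) for HSPH1 and from −0.74 (without treated calf 1) to −0.12 (without treated calf 2) for HSPA8. For HSPB7 and HSPB1 the range was −0.91 (without treated calf 1) to −0.23 and −0.33 (both without treated calf 4). HSPB6, a small heat shock protein also known from smooth muscle relaxation, had 0.32 ± 0.264 in round and −0.29 ± 0.291 in sirloin. The difference between its diet effects in the muscles was −0.59 ± 0.391 (edgeR, unadjusted p = 0.151, adjusted p = 1.00), the one with the smallest p of the 10. With the calf as a block, which uses the pairing of the muscles, it was −0.64 ± 0.255 (edgeR, unadjusted p = 0.0283, adjusted p = 1.00). HSPB6 was then the only 1 of the 10 genes with an unadjusted p under 0.05, which 865 of 22877 genes had. In that fit 1 of 22877 genes (0.00437%) passed the adjusted threshold.

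**Figure D3:**
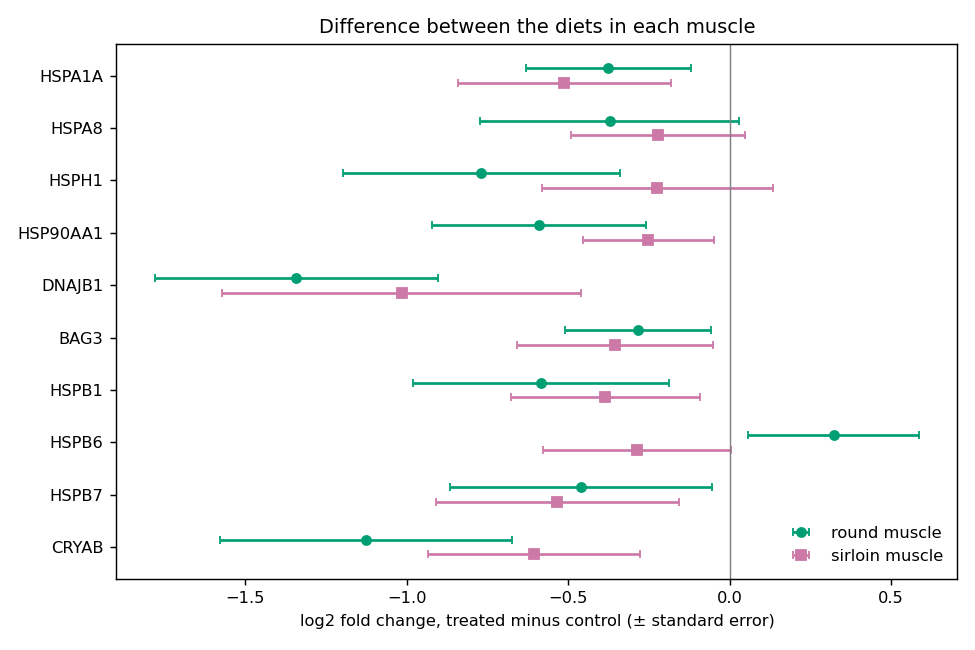
Log2 fold change of treated against control calves for the 10 heat shock genes in round (green circles) and sirloin muscle (pink squares), with its standard error from edgeR, 4 against 4 calves each. All values lay below 0 except that of HSPB6 in round (0.32), and none passed the adjusted threshold.

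The third question was how round and sirloin muscle differ. The mean over the calves was lower in sirloin for 9 of the 10 genes, with the largest differences in CRYAB and HSPB1, and slightly higher for HSPB6. CRYAB in sirloin had 2857, 1707, 1043 and 2032 CPM in the control calves and 1413, 766.9, 1705 and 1134 CPM in the treated calves, so it was lower than in round of the same calf in 8 of 8 calves. The difference within a calf was −1.36 ± 0.849 on the log2 scale (mean and SD of 8 calves), and 2 of the calves, control calves 2 and 3, had the largest differences, of −2.48 and −2.72. In the edgeR fit of the 4 groups, the log2 fold change of sirloin against round was −1.43 ± 0.300, with an adjusted p of 0.132. No heat shock gene passed this fit, in which 14 of 22877 genes (0.0612%) did, while 4 of the 10 heat shock genes and 1447 of all genes had an unadjusted p under 0.05. DESeq2 called 1 of the 10 genes, CRYAB, with an adjusted p of 0.00138, and limma-voom called 0.

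With the calf as a block, the edgeR log2 fold change of CRYAB was −1.36 ± 0.241 with an adjusted p of 0.0357, and CRYAB was the only 1 of the 10 genes to pass. In that fit 109 of 22877 genes (0.476%) passed, of which 62 (0.271%) were lower in sirloin. The call was lost in 6 of the 8 fits that left out a calf, namely without control calf 2 (adjusted p = 0.105), control calf 3 (0.116), control calf 4 (0.0596) and treated calves 1 (0.104), 2 (0.0616) and 3 (0.0836), with a log2 fold change of −1.54 to −1.18 throughout. HSPB7 had −0.65 ± 0.131 and an adjusted p of 0.0555 in the block fit, and passed with 0.0371 when control calf 1 was left out.

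HSPB7 was also lower in sirloin in 8 of 8 calves, by −0.65 ± 0.338 on the log2 scale. For CRYAB and HSPB7 the two-sided exact permutation p over sign flips of the 8 calves was 0.00781, the smallest that 8 calves allow. On the TPM scale as well, both genes were lower in sirloin in 8 of 8 calves. Of all genes, 1.15% were lower in sirloin in all 8 calves and 1.34% were higher in all 8, which none of the 10 heat shock genes was. HSPA1A was lower in 7 of 8 calves (−0.76 ± 0.630, exact permutation p = 0.0156) and HSPB1 in 7 of 8 (−0.94 ± 0.926, exact permutation p = 0.0391). DNAJB1 was lower in 7 of 8 on the CPM and in 6 of 8 on the TPM scale, with a mean log2 CPM difference of −0.37 ± 0.386 (exact permutation p = 0.0312). These p-values are not adjusted over genes.

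On the CPM scale HSPA8 was lower in sirloin in 7 of 8 calves, HSP90AA1 in 6, and HSPH1 and BAG3 in 5, and on the TPM scale HSPA8 in 6 and HSP90AA1 in 4. The exact permutation p of these 4 genes on the CPM scale ran from 0.0859 to 0.141. HSPB6 was higher in sirloin in 6 of 8 calves, by 0.07 ± 0.466 (exact permutation p = 0.664). It had 585.5, 477.5, 321.9 and 366.1 CPM in round and 808.7, 518.1, 428.0 and 538.7 CPM in sirloin of the control calves, so sirloin was higher in all 4 of these. In the treated calves it had 528.6, 658.9, 547.3 and 421.4 CPM in round and 583.2, 416.3, 602.1 and 276.5 CPM in sirloin, where calves 2 and 4 were lower.

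**Figure D4:**
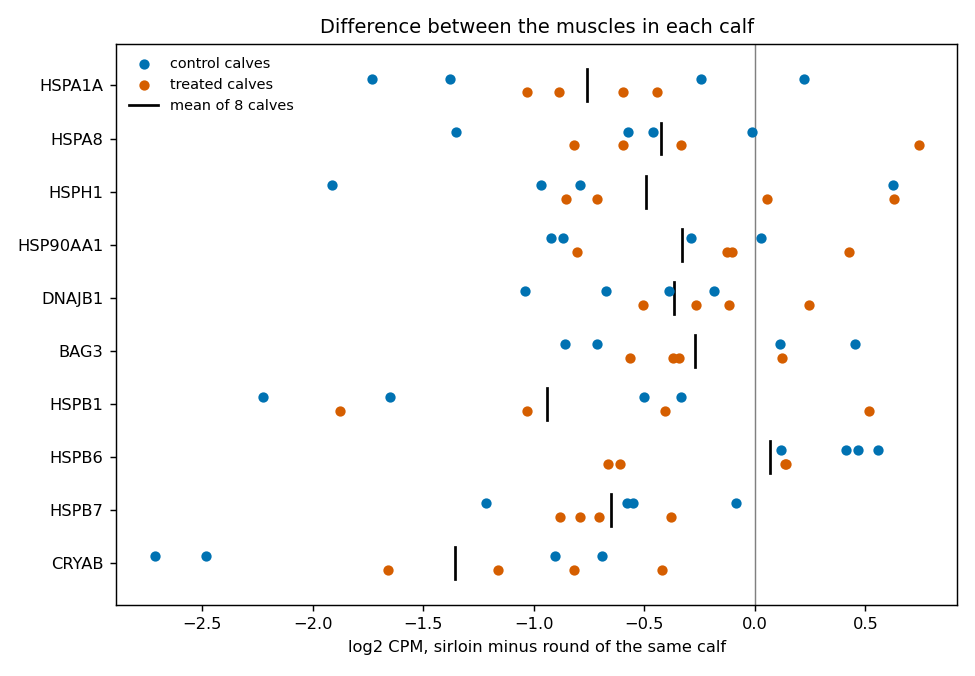
Difference in log2 CPM between sirloin and round muscle of the same calf for the 10 heat shock genes, with 4 control (blue) and 4 treated calves (orange) and the mean of 8 calves as a black bar. All 8 calves lay below 0 for CRYAB and HSPB7, whereas 6 of 8 lay above 0 for HSPB6.

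Beside this, the slow fibre sum had a median of 20469 TPM in round and 23117 TPM in sirloin, and the fast fibre sum of 56774 and 65320 TPM, with ranges that overlapped. In the block fit 0 of 8 slow and 0 of 8 fast fibre genes passed. The part of fibre type in the difference between the muscles was not tested. Of the 6 smooth muscle genes, TAGLN (−0.70, edgeR adjusted p = 0.0266) and ACTA2 (−0.69, adjusted p = 0.0438) were lower in sirloin in the block fit, and 4 of the 6 had a log2 fold change below 0. In that fit 0.476% of all genes passed, and the calls of TAGLN and ACTA2 are not given here with a calf left out. DES, which skeletal fibres also express, dominated the sum of the 6 genes, which ranged from 3397 to 7720 TPM in round and from 4158 to 8519 TPM in sirloin. The other 5 genes summed to 122 to 278 TPM in round (median 173) and 78.9 to 183 TPM in sirloin (median 121). The part of smooth muscle in the difference of CRYAB was not tested.

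The remaining chaperone genes were taken from lists of the pathway. For the maternal diet, no gene of these lists passed edgeR's test. They held 27 other cytosolic chaperones and co-chaperones, and 4 tested of 6 genes listed as other small heat shock proteins. The rest were 10 other BAG and chaperone-assisted autophagy genes, 5 heat shock factor genes, and 14 chaperones of the endoplasmic reticulum and mitochondria. The median log2 fold change of these 14 was −0.67 in round and −0.28 in sirloin, and that of the 27 cytosolic ones −0.12 and −0.13. With the calf as a block, DNAJA4, a J-domain protein of muscle, was called lower in sirloin (−0.94, edgeR adjusted p = 0.0434). So was SERPINH1, the collagen chaperone HSP47 (−1.05, adjusted p = 0.0413), and no gene of these lists was called higher. In that fit 109 of 22877 genes (0.476%) passed, and 35 to 322 when a calf was left out. Both calls lie near the threshold and are not given here with a calf left out.

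In the F test of calves, edgeR called 5 of the 27 cytosolic chaperones, which were DNAJA4, the myosin chaperones UNC45B and SMYD1, HSPA4L and the HSP90 co-chaperone PTGES3. Of the 4 tested genes listed as other small heat shock proteins it called 2, HSPB3 and IFT25, the latter listed only by its other name HSPB11. It also called 3 of 10 BAG and autophagy genes (SQSTM1, BAG2 and DES) and 1 of 5 factor genes (HSF2). In the endoplasmic reticulum and mitochondria list it called 8 of 14, all of them of the endoplasmic reticulum, and the 5 with the largest F were HYOU1, SERPINH1, DNAJB9, DNAJC3 and DNAJB11. These counts stand against 20.5% of all genes, or 5661 of 15638 after filterByExpr.

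HSPB8, the small heat shock protein that forms a complex with BAG3, was outside the naming rule and was singled out after its values were seen. The paper, which used DESeq2, lists HSPB8 among the downregulated genes of round muscle and not among those of sirloin. In round it had 883.3, 1681, 3733 and 1552 CPM in the control calves and 712.5, 510.3, 355.5 and 459.2 CPM in the treated calves. In sirloin it had 839.2, 355.4, 407.4 and 680.2 CPM in the control calves and 339.7, 216.4, 348.8 and 217.2 CPM in the treated calves. On the CPM scale the diets did not overlap in either muscle, as for 1.76% of all genes in round and 1.68% in sirloin. On the TPM scale they overlapped in sirloin, where control calf 2 had 319 TPM and treated calves 1 and 3 had 324 and 333 TPM. The log2 fold change, treated minus control, was −1.92 ± 0.424 in round (edgeR, adjusted p = 0.618), −1.02 ± 0.311 in sirloin (adjusted p = 0.876) and −1.61 ± 0.280 in the sums (adjusted p = 0.404). It thus did not pass the adjusted threshold of edgeR, whereas DESeq2 gave adjusted p-values of 0.00481 in round, 0.681 in sirloin and 0.00023 in the sums. Without control calf 3, the highest in round, the log2 fold change in round was −1.40. Between the muscles of a calf, HSPB8 differed by −1.26 ± 1.05 on the log2 CPM scale, sirloin minus round. Sirloin was lower in 8 of 8 calves, by as little as −0.03 in one of them, and in 7 of 8 on the TPM scale. The adjusted p of this difference was 0.132 in edgeR, 0.0817 with the calf as a block and 0.0018 in DESeq2. In the F test of calves it had an adjusted p of 0.854 (edgeR).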

How the data were processed

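Read counts per gene, as deposited by the authors, are whole numbers without normalization. The deposited normalized values were used as the authors' TPM. They sum to 1000000 in both libraries of control calf 2 and to 999756 to 999858 in the other 14 libraries. The cause of this difference was not tested. Per the labels, the submitters' processing notes name Trimmomatic, STAR, featureCounts and the build ARS-UCD1.2. The methods of the study name HISAT2, Bowtie2 and StringTie instead, and which of these made the counts is not settled. The labels give poly(A) selection and the methods a stranded total RNA kit with removal of rRNA and globin RNA, so which RNA the values cover is not settled either. Counting by strand is not given in the sources used here. The authors' own comparison tables (fold changes and p-values) were not used in any test, and only the paper's listing of HSPB8 is mentioned.

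The 10 genes and the lists were chosen with earlier results of these data known. Symbols came from a RefSeq table, which named 90.2% of the genes and is of another assembly, so no coordinates are given. Main tests used edgeR 4.0.16 in R 4.3.3 (TMM, quasi-likelihood, two-sided, Benjamini-Hochberg adjustment over every gene that had 1 count or more in some library, threshold 0.05), without covariates. The standard error is the log2 fold change divided by the square root of F. The diet was tested in each muscle, in counts summed per calf and as a difference between muscles, and the muscles over 16 libraries in 4 groups. The F test of calves used edgeR's newer quasi-likelihood form, which called 4699 of 22877 genes, where the older form called 4237. The main edgeR tests and the calf-block fit of the muscles were checked on simulated counts, and the correlation step on simulated normal values. Log2 CPM used a prior count of 2, and pairings of 8 calves (40320) or sign flips (256) were enumerated. Muscles with the same diet and number were taken as 1 calf. Correlations of deviations were 0.322 to 0.769 for 8 calves and −0.532 to 0.477 between different calves, with ranges that overlap. In the main tests, p-values of the diet within a muscle or in the sums measure the spread between calves. The unblocked fits of 16 libraries took the libraries of a calf as independent. The F test of calves and the block fits are set against the scatter between the muscles of a calf. Counts are not corrected for PCR duplicates.

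Alternatives were DESeq2 1.42.0, limma-voom 3.58.1, RLE and upper-quartile factors, filterByExpr, log2(TPM + 1) with limma, replicate blocks, a single fit of both muscles, correlations, and each calf left out. The other quasi-likelihood form and the block fits without a calf were added after seeing the data. The text names all 10 genes, the called genes of the other lists (at most the 5 with the largest values), and the 5 genes most like the mean of HSPA1A, HSPA8, HSPH1, HSP90AA1, DNAJB1 and BAG3 outside the lists. HSPB8 was an exception. The promoter search planned for the members was not run.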

Additional observations from a re-analysis of the deposited data

Results flagged for a closer look

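HSPB7 in round muscle of control calf 2 stood at 929.6 CPM, with 510.3 to 539.5 CPM in the other 3 control calves. It stands out because its gap to the next calf was 0.930 of the whole range of the group, above Dixon's 95% critical value for 4 samples. Of 40 groups of 4 libraries, 1 passed this limit, and chance flags about 1 in 20. This calf also had the deepest libraries and the highest round levels of HSPB1 and CRYAB. The cause was not tested.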

How the results depend on the processing

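Leaving out a calf, other normalizations, filterByExpr, limma-voom and DESeq2 left 0 of 10 genes called for the diet in each muscle, in the sums and in the difference between muscles. The number block of the diet fits also called 0, and replicate numbers did not pair calves across diets (2 of 4 pairs in round and 1 of 4 in sirloin had correlations above 0.1). For sirloin against round, DESeq2 and the calf block called 1 gene each where the unblocked edgeR fit called 0, the other quasi-likelihood form of the block 1, and the block fits without a calf between 0 and 2. For calf differences, the correlations (Pearson, Spearman and Pearson within diets) called 0 where the F test called 2, and fits without a calf 1 to 3.

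Reversed directions were of values that no fit called. For the diet in sirloin, HSPH1 had 0.0833 on log2(TPM + 1), and −0.42 to 0.22 without a calf. HSPB6 over both muscles had 0.00342 with the calf as a random block, and a range of −0.14 to 0.16 without a calf. In the difference of the diet effects between muscles, HSPA1A had 0.0440 with limma-voom and 0.0427 with the calf block, and −0.40 to 0.21 without a calf, and the ranges without a calf were −0.0730 to 0.41 for HSPA8, −0.11 to 0.63 for HSPB1, −0.32 to 0.14 for HSPB7 and −0.24 to 0.20 for BAG3. The causes were not tested.

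Counts over all genes moved more than 1.5 times: DESeq2 called 45, 13 and 37 genes for the diet in round, sirloin and the sums where edgeR called 4, 2 and 1, and 84 between muscles, where edgeR called 14 and the calf block 109 (35 to 322 without a calf). For the diet limma-voom called 1, 0 and 0, the number block 2, 0 and 0, limma on log2(TPM + 1) 0 in each muscle, and fits without a calf 0 to 3, 0 to 1 and 0 to 2. For the sums, the other quasi-likelihood form called 4 and the random calf block 2. The difference between muscles had 1 call with the calf block and 0 without. The F test of calves called 1896 to 4747 genes without a calf, where it called 4699. The smallest count of a member in a library was 528, at which counting error is small beside the spread between calves.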
